A study of Mus musculus with 4 samples.

Results

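The 10 immediate-early genes Egr1, Egr2, Egr3, Fos, Fosb, Fosl1, Fosl2, Ier2, Myc and Srf were read in naïve CD4+ T cells of mouse spleen that had been polarized toward T follicular helper (Tfh) cells in vitro. The genes were taken by name from the 54752 genes listed in the count files, and all 10 were found. WT cells were compared with Mek1/2-tKO cells, in which Map2k1 and Map2k2, the genes of the kinases MEK1 and MEK2, carry floxed alleles that Cd4-Cre deletes in T cells. Cells of both genotypes were stimulated with anti-CD3 and anti-CD28, with IL-6 added and with TGF-β, IL-4, IFN-γ and IL-2 blocked by antibodies, and viable cells were sorted on day 3 for RNA-seq. There were 2 libraries of each genotype. Whether the WT mice carried Cd4-Cre or floxed alleles, the age of the donors and whether the 2 libraries of a genotype came from different mice are not given in the sources used here, so p values measure only the spread between these libraries, which may be technical. Cd4-Cre is active from the thymus onward, in the precursors of both CD4 and CD8 T cells.

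Immediate-early genes are transcribed within minutes of receptor stimulation, without the need for newly made protein. In T cells the receptor activates RAS, RAF, MEK1/2 and then ERK1/2. ERK phosphorylates the ternary complex factors ELK1, ELK3 and ELK4, which sit with serum response factor (SRF) on DNA elements that contain a CArG box, and these elements lie near Egr, Fos and Srf genes. EGR proteins are zinc finger factors, FOS proteins act as AP-1 in pairs with JUN proteins, and MYC pairs with MAX to drive genes of growth and metabolism. The question addressed by the comparison is what remained of this output after 3 days in cells labelled as Mek1/2-tKO.

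Promoters of 5 of the 10 genes (Egr2, Fos, Fosb, Fosl2 and Srf) were matched in the RefSeq promoter set on GRCm38.p6, each from 250 bases before to 50 bases after the start. The CArG box was found in 1.63% of all 32851 promoters of this length (1.81% of genes), and among the matched genes in promoters of Egr2 and Srf. Egr2 had 5 listed starts, and the one nearest the start of the counted gene, at position 67535499, had no CArG box. They are shown because both carry the box that SRF binds, and Egr2 was called lower in Mek1/2-tKO cells whereas Srf was not. Capitals mark the CArG boxes, and the sequences run 5′ to 3′ on the strand of the gene, at chr10:67537619-67537918 (plus strand) for Egr2 and at chr17:46556113-46556412 (minus strand) for Srf.
Egr2: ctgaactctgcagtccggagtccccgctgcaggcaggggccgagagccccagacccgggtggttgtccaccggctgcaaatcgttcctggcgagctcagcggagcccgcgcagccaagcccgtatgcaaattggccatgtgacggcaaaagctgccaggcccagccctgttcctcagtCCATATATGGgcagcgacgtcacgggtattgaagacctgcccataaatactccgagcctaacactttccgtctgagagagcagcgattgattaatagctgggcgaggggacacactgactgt
Srf: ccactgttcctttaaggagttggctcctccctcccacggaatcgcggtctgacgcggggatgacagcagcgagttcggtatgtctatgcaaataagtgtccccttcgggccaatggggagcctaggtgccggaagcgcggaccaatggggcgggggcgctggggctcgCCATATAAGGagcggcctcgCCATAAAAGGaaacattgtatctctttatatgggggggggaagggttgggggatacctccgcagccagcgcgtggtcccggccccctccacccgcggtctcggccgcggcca

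The box of this Egr2 promoter lay at -72 to -63 from the start, and the boxes of Srf at -82 to -73 and at -62 to -53. Another Egr2 start upstream, at position 67537566, had a further CArG box at -72 to -63, shown here with its neighbouring bases because it differs in its central letters.
Egr2, upstream start: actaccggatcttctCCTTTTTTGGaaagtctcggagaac
The EGR site GCGNGGGCG, searched on both strands, was found in the promoters of Fosb, Fosl2 and Srf and in 5.55% of all promoters. The E-box CACGTG, which MYC and MAX bind, was found at 1 of the 5 listed Egr2 starts and in 7.15% of all promoters. The AP-1 site TGANTCA (7.81% of all promoters) and the cyclic AMP response element TGACGTCA (1.79%) were not found in these windows. The serum response element of Fos is known to lie farther upstream than the window. These matches describe letters only.

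Between 16330802 and 18931090 reads were counted in a library, and 14330 genes had enough counts to be tested. Levels are given as CPM, counts scaled to the TMM-normalized library size. A call needed an adjusted p (Benjamini-Hochberg) under 0.05 together with a change of 1.5-fold or more (0.585 on the log2 scale) in edgeR's quasi-likelihood test over all genes. Of the targeted genes, Map2k1 had 182 and 187 CPM in WT and 98.0 and 105 CPM in Mek1/2-tKO libraries and was called lower (log2 fold change -0.86, standard error 0.08, adjusted p = 1.29e-06). Map2k2 had 155 and 165 CPM in WT and 172 and 182 CPM in Mek1/2-tKO libraries and was not called (log2 fold change 0.15, adjusted p = 0.126). Counts summed over a gene do not separate transcripts that lack the floxed exons from complete ones.

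The libraries also differed in markers of cells other than the naïve CD4+ T cells that were magnetically isolated before the culture. The summed level of the 12 alpha-beta T cell markers was 3155 and 3159 CPM in WT libraries against 2785 and 2605 CPM in Mek1/2-tKO libraries, with 6 called lower and 1 higher, and Cd4 itself fell from 297 and 289 CPM to 18.8 and 25.1 CPM. For the 18 B cell markers it was 1966 and 1933 CPM against 9507 and 9399 CPM, with 16 called higher and 1 lower, and none was at 0 in WT. All 2 CD8 T cell, 5 gamma-delta T cell and 8 NK cell markers were called higher, with summed levels of 59.3 to 67.4, 4.36 to 6.98 and 95.1 to 97.1 CPM in WT and of 214 to 238, 165 to 184 and 592 to 644 CPM in Mek1/2-tKO. The myeloid sum, over 10 markers, was 4.67 and 5.03 CPM against 29.0 and 23.2 CPM, with all 7 tested markers called higher and with Adgre1 and S100a8 at 0 in both WT libraries. Trdc of gamma-delta T cells (1.64 and 1.56 against 57.9 and 53.6 CPM) and Cd79a of B cells (56.8 and 59.0 against 630 and 614 CPM) were among the markers called higher. Fewer cells of a type and less RNA per cell cannot be told apart in bulk RNA. The part of this difference in the values of Map2k1 and Map2k2, of the 10 genes and of the other genes named below was not tested.

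**Figure D1:**
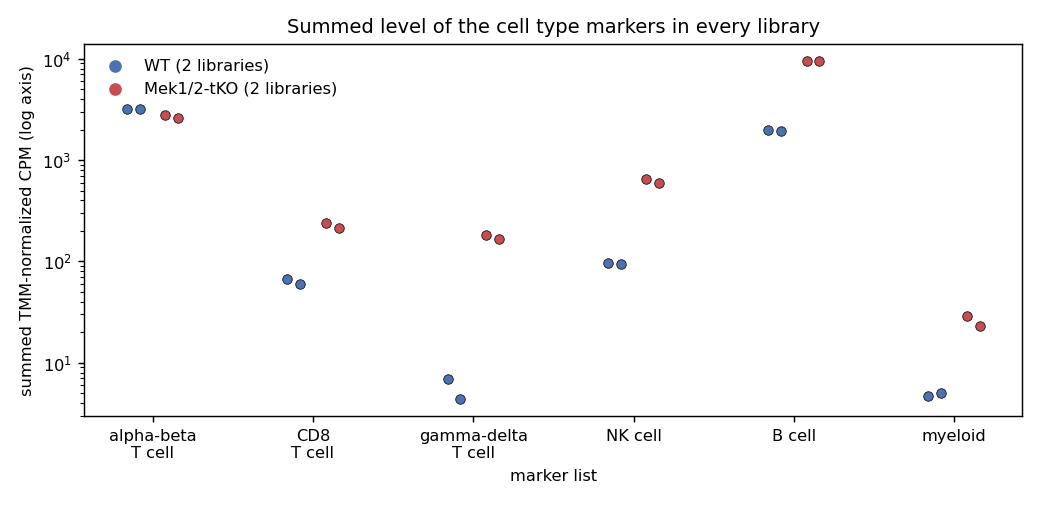
Summed TMM-normalized CPM of each list of cell type markers (log axis), with 1 point per library, WT in blue and Mek1/2-tKO in red. The B cell sums lay at 1933 to 1966 CPM in WT and at 9399 to 9507 CPM in Mek1/2-tKO, while the alpha-beta T cell sums lay between 2605 and 3159 CPM in all libraries.

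Among the 10 immediate-early genes, 5 were called lower in Mek1/2-tKO cells (Fosl2, Myc, Egr1, Fos and Egr2), 1 was called higher (Fosl1), and 4 were not called (Egr3, Srf, Fosb and Ier2). Of all 14330 genes tested, 16.4% were called lower, 19.3% higher and 35.8% in either direction. The median log2 fold change of the 10 genes was -0.56, against 0.02 over all genes tested. WT and Mek1/2-tKO libraries did not overlap for 8 of the genes, but they did not overlap for 78.3% of all genes tested either, so this count is near the background. All 10 genes passed the filter on low counts, and none shared exon bases with another gene.

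**Figure D2:**
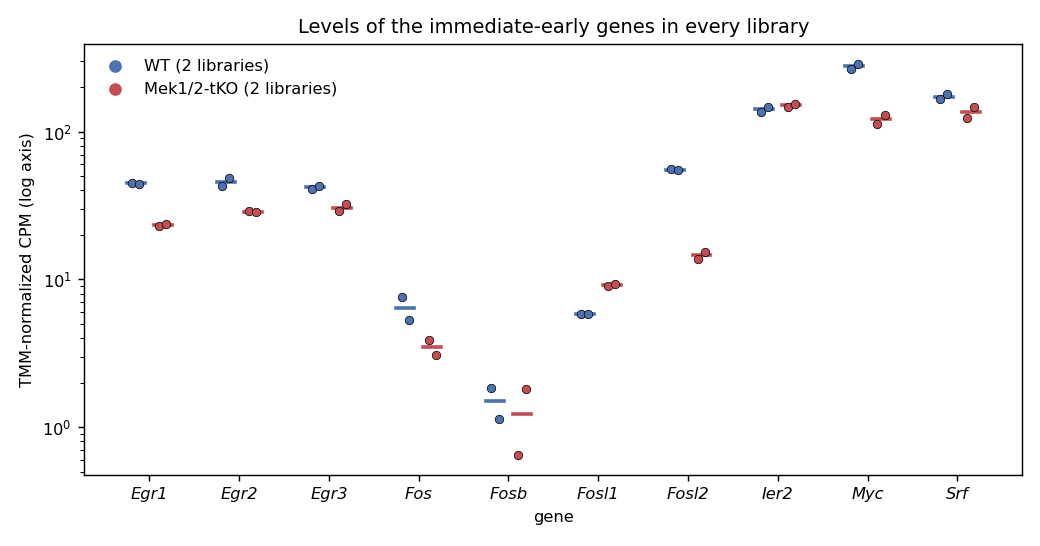
TMM-normalized CPM (log axis) of the 10 immediate-early genes, with 1 point per library, a bar at the mean of 2 libraries, WT in blue and Mek1/2-tKO in red. Fosl2 lay at 54.7 to 55.7 CPM in WT and at 13.8 to 15.3 CPM in Mek1/2-tKO, the widest gap of the 10 genes, while Ier2 and Fosb overlapped between the genotypes.

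Levels of different genes were compared only after division by exon length. In WT libraries Myc stood highest with 102 ± 6.58 CPM per kb (SD, n = 2), followed by Ier2 with 93.2 ± 5.35 and Srf with 59.8 ± 3.02 CPM per kb. On this scale Ier2 lay at the 94.5th and Srf at the 91.4th percentile of all genes tested, and Myc above both. The Egr genes formed a middle group with 13.5 ± 1.15 (Egr2), 9.95 ± 0.0474 (Egr1) and 9.52 ± 0.336 (Egr3) CPM per kb. Fosl2 (5.70 ± 0.0741), Fosl1 (3.42 ± 0.0256) and Fos (2.73 ± 0.678) followed, and Fosb was lowest with 0.239 ± 0.0800 CPM per kb. In Mek1/2-tKO libraries Ier2 stood highest (99.2 ± 3.65 CPM per kb), and Srf (46.9 ± 5.76) and Myc (44.5 ± 4.76) came next with ranges that overlapped. Fosl1, with 5.39 ± 0.137 CPM per kb, had moved above Egr1 (5.19 ± 0.104) in this order, and the ranges of Fosl2 and Fos overlapped at 1.50 ± 0.111 and 1.48 ± 0.237 CPM per kb.

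Egr1 (ENSMUSG00000038418.7, GRCm38 chromosome 18, 34859823 to 34864984, plus strand) encodes the founding EGR factor, a prompt reporter of ERK activity. It had 44.8 and 44.5 CPM in the WT libraries and 22.9 and 23.6 CPM in the Mek1/2-tKO libraries. The replicates lay close together, and the genotypes were far apart. The level fell to 52.2% of WT (log2 fold change -0.94, standard error 0.12, adjusted p = 1.39e-05), and the log2 fold change lay between -1.02 and -0.88 under the 8 alternatives that kept all libraries.

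Egr2 (ENSMUSG00000037868.15, chromosome 10, 67535475 to 67542188, plus strand) and Egr3 (ENSMUSG00000033730.4, chromosome 14, 70077203 to 70082614, plus strand) encode factors that restrain T cell activation and that also take part in Tfh differentiation. Egr2 had 43.1 and 48.6 CPM in WT and 29.1 and 28.4 CPM in Mek1/2-tKO libraries. It fell by 0.67 on the log2 scale (standard error 0.12, adjusted p = 2.63e-04). Without WT replicate 2 its log2 fold change was -0.58, just under the fold change threshold, and the call was lost. Egr3 had 40.9 and 43.0 CPM in WT and 28.9 and 32.2 CPM in Mek1/2-tKO libraries, again without overlap. Its log2 fold change of -0.46 passed the p threshold but not the fold change threshold (95% interval -0.71 to -0.21, adjusted p = 0.00454). The call of Egr1 and Egr2 and the lack of a call for Egr3 do not show that the genes differ. The interval of Egr3 overlapped that of Egr2 (-0.92 to -0.42) and, narrowly, that of Egr1 (-1.19 to -0.69). A difference between the genes was not tested.

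Within each library, the share of a gene in its family does not depend on the scaling between libraries. The summed level of the 3 Egr genes was 31.9 and 34.0 CPM per kb in WT and 20.2 and 20.9 CPM per kb in Mek1/2-tKO. Egr1 made up 31.3 and 29.2% of this sum in WT and 25.3 and 25.1% in Mek1/2-tKO libraries. Egr3 made up 29.1 and 28.7% in WT and 32.4 and 34.9% in Mek1/2-tKO libraries. Egr1 was thus a smaller and Egr3 a larger part of the family in both Mek1/2-tKO libraries, while the shares of Egr2 (39.7 and 42.1% against 42.4 and 39.9%) overlapped. The smallest two-sided p of an exact permutation test on 2 against 2 libraries is 0.333, and these shares are given as descriptions.

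**Figure D3:**
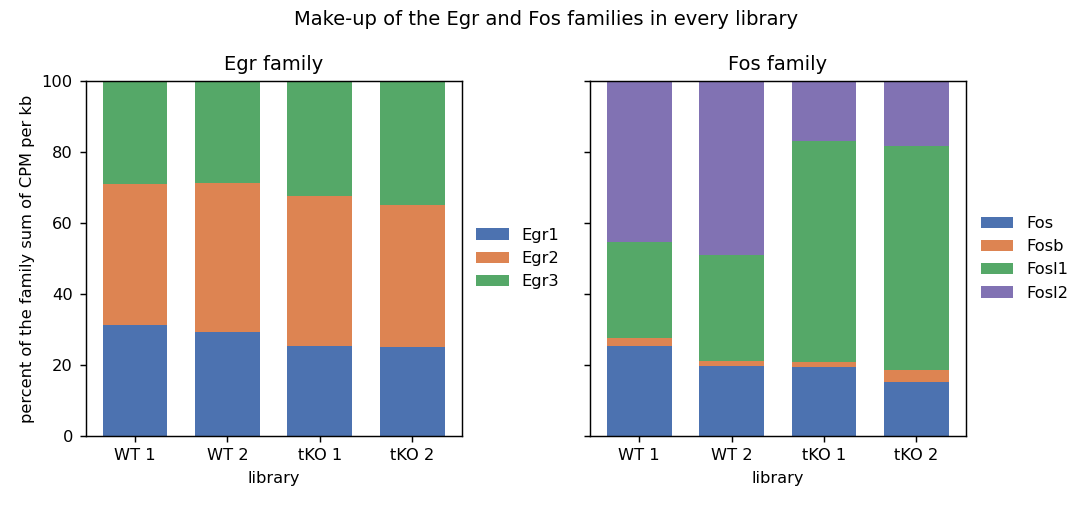
Share of each gene in the summed CPM per kb of the Egr family (left) and the Fos family (right), in percent, with 1 bar per library. Fosl1 took 26.8 and 29.8% of the Fos family in WT and 62.5 and 63.3% in Mek1/2-tKO, and Fosl2 took 45.5 and 49.1% against 16.8 and 18.2%.

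The Fos family moved in both directions. Fosl2 (ENSMUSG00000029135.10, chromosome 5, 32135801 to 32157842, plus strand) encodes FRA-2, and it had the largest log2 fold change of the 10 genes. It had 55.7 and 54.7 CPM in WT and 13.8 and 15.3 CPM in Mek1/2-tKO libraries, in raw counts 1085 and 1054 against 213 and 287. It fell to 26.4% of the WT level (log2 fold change -1.92, standard error 0.12, adjusted p = 2.43e-08). Fits without 1 of the libraries gave values from -2.01 to -1.85.

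Fosl1 (ENSMUSG00000024912.5, chromosome 19, 5447703 to 5455945, plus strand) encodes FRA-1, which like FRA-2 lacks the long activation domain of FOS. Its 5.80 and 5.86 CPM in WT rose to 9.04 and 9.37 CPM in Mek1/2-tKO libraries, in raw counts 113 and 113 against 140 and 176. The log2 fold change was 0.66 (standard error 0.21, 95% interval 0.20 to 1.12, adjusted p = 0.0185). This call was lost with DESeq2 (adjusted p = 0.0951), with scaling by library size alone (log2 fold change 0.58), and without WT replicate 1 (adjusted p = 0.0687) or WT replicate 2 (adjusted p = 0.0624), although the value stayed between 0.58 and 0.72 in these and the other alternatives. The ratio of Fosl2 to Fosl1 within a library, on the CPM per kb scale, was 1.69 and 1.64 in WT and 0.268 and 0.288 in Mek1/2-tKO.

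Fos (ENSMUSG00000021250.13, chromosome 12, 85473890 to 85477273, plus strand), the archetype of the family, was low on day 3, with raw counts of 147 and 102 in WT and of 60 and 58 in Mek1/2-tKO. The levels were 7.54 and 5.29 CPM in WT libraries against 3.88 and 3.09 CPM in Mek1/2-tKO libraries. Both Mek1/2-tKO libraries lay under both WT libraries, but the WT replicates were spread widely. Fos fell by 0.89 on the log2 scale (standard error 0.29, adjusted p = 0.0187). The call was lost with DESeq2 (adjusted p = 0.0754), without WT replicate 1 (log2 fold change -0.61, adjusted p = 0.214) and without Mek1/2-tKO replicate 2 (log2 fold change -0.74, adjusted p = 0.0572).

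Fosb (ENSMUSG00000003545.3, chromosome 7, 19302696 to 19310051, minus strand) had only 36 and 22 counts in WT and 10 and 34 in Mek1/2-tKO, or 1.85 and 1.14 against 0.646 and 1.81 CPM. The genotypes overlapped, and a difference was not detectable at this depth (log2 fold change -0.26, 95% interval -1.52 to 1.00, adjusted p = 0.727). Its value was 0.12 without WT replicate 1 and 0.28 without Mek1/2-tKO replicate 1, so that no direction can be given.

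Myc (ENSMUSG00000022346.15, chromosome 15, 61985391 to 61990374, plus strand), which drives ribosome production, nutrient uptake and division in activated T cells, had 264 and 289 CPM in WT and 112 and 130 CPM in Mek1/2-tKO libraries. These levels rest on 5139 and 5572 counts in WT and on 1732 and 2444 counts in Mek1/2-tKO. Myc fell to 43.8% of WT (log2 fold change -1.19, standard error 0.09, adjusted p = 1.31e-07), and fits without 1 of the libraries gave values from -1.31 to -1.09. Its ratio to Ier2 within a library, per kb, was 1.09 and 1.10 in WT and 0.426 and 0.471 in Mek1/2-tKO.

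Srf (ENSMUSG00000015605.6, chromosome 17, 46548329 to 46556175, minus strand) encodes the factor that binds CArG boxes, and matches to the box lay in its own promoter. Its level was 167 and 179 CPM in WT and 124 and 148 CPM in Mek1/2-tKO libraries. The ranges did not overlap, but the log2 fold change of -0.35 stayed under the fold change threshold (95% interval -0.55 to -0.15, adjusted p = 0.00619). It was -0.23 without Mek1/2-tKO replicate 1 and -0.49 without Mek1/2-tKO replicate 2, the range of all libraries left out in turn.

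Ier2 (ENSMUSG00000053560.4, chromosome 8, 84661331 to 84662852, minus strand), an immediate-early gene with a single exon and a nuclear product, had 136 and 148 CPM in WT and 147 and 155 CPM in Mek1/2-tKO libraries. The genotypes overlapped. The log2 fold change was 0.09 (95% interval -0.09 to 0.27, adjusted p = 0.375), so that the interval leaves out a change of 1.5-fold in either direction.

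**Figure D4:**
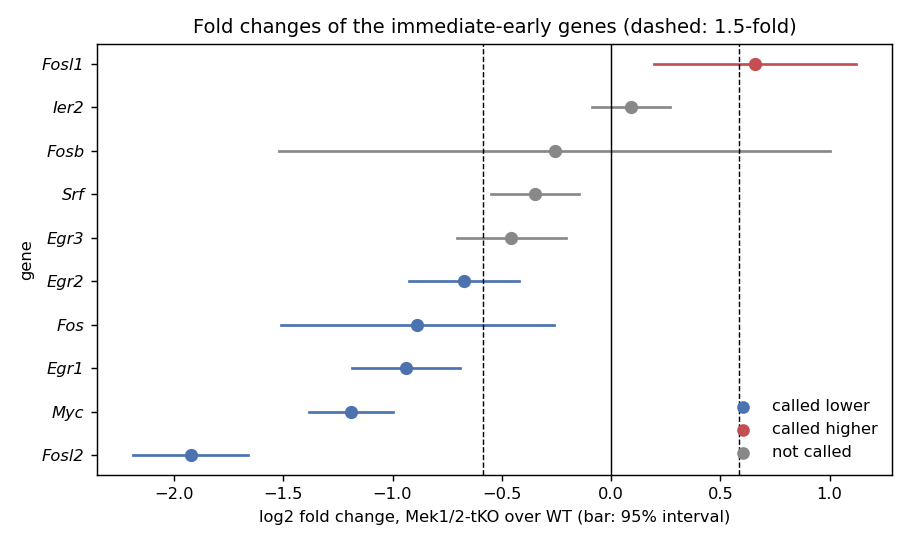
Log2 fold change of each gene (Mek1/2-tKO over WT, points in blue where called lower, red where called higher and grey where not called) with its 95% interval from edgeR's quasi-likelihood fit, and dashed lines at a fold change of 1.5. Fosl2 (-1.92), Myc (-1.19) and Egr1 (-0.94) lay past the line with their whole intervals, whereas Fosb had the widest interval, from -1.52 to 1.00.

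Taken as a set, the genes had a compact structure, which their choice did not use. Their median span from first to last exon base was 6063 bases, against 16696 bases over all genes tested, and the median number of merged exons was 4 against 8. Ier2 was shortest with 1522 bases in 1 exon. Fosl2, with 22042 bases, was the only gene of the 10 to exceed the median span. It also had the largest fold change, and a link between span and fold change was not tested.

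Other genes of the pathway were read by list. For comparison, 16.4% of all genes tested were called lower and 19.3% higher, with a median log2 fold change of 0.02. Some genes stood in several lists, among them Jun, Junb, Jund, Atf3, Ier3 and Phlda1, so the lists are not independent. Of 18 genes of the RAS-MEK-ERK pathway, 7 were called lower and 0 higher, with a median log2 fold change of -0.33. The scaffold gene Ksr1 fell from 53.0 and 61.3 to 20.5 and 23.0 CPM (log2 fold change -1.39, standard error 0.12), and the RAS exchange factors Sos2 (-1.12) and Sos1 (-1.08) fell as well. Of 14 MEK-ERK feedback genes, 13 were tested, of which 6 were called lower and 2 higher, and their median of -0.79 was the lowest of the pathway lists. Spry1 (log2 fold change -2.19), Spred2 (-1.62) and the ERK phosphatase gene Dusp4 (-1.56) were lower, whereas Spry2 (2.38) and Ier3 (1.33) were higher. The value of Spry1 is uncertain, since 24.4% of its exon bases overlap genes of the opposite strand.

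Other immediate-early genes were called in both directions. Of 28 genes, 9 were called higher and 7 lower, with a median log2 fold change of -0.10. The nuclear receptor gene Nr4a1 fell from 270 and 279 to 80.7 and 83.3 CPM (log2 fold change -1.74, standard error 0.08), and Atf3 (-1.73) and Ier5l (-1.48) were lower too. Jun rose from 55.5 and 54.6 to 160 and 199 CPM (log2 fold change 1.71, standard error 0.11), and Arc (1.71) and the antiproliferative gene Btg2 (1.36) were higher. Egr4, the remaining Egr gene, had 4.00 and 2.23 CPM in WT and 2.07 and 1.60 CPM in Mek1/2-tKO and was not called (adjusted p = 0.135).

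**Figure D5:**
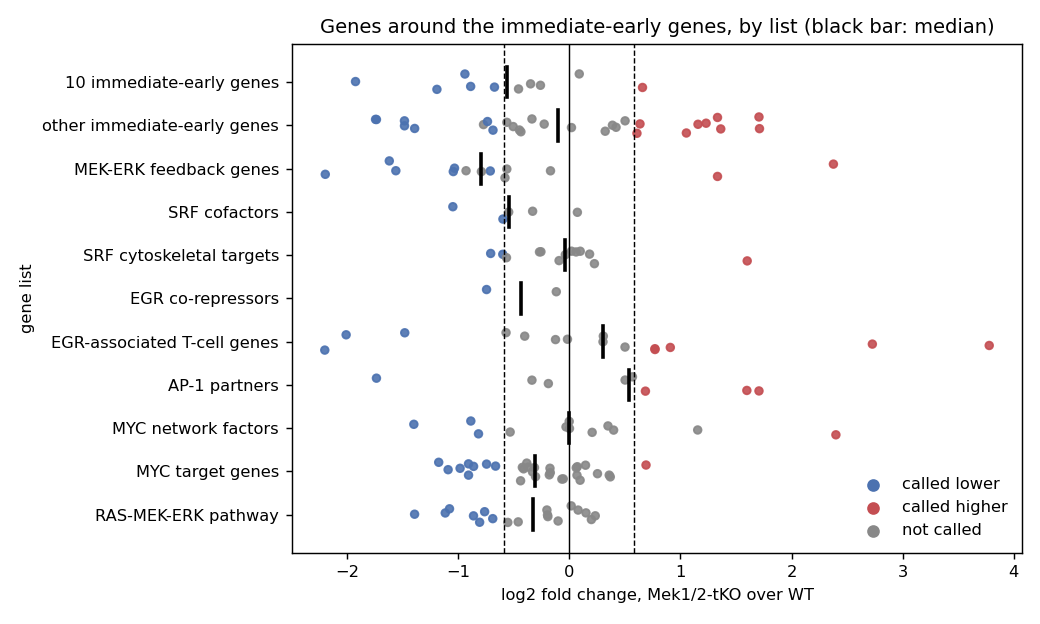
Log2 fold change (Mek1/2-tKO over WT) of every tested gene of each list, in blue where called lower, red where called higher and grey where not called, with the median as a black bar and dashed lines at a fold change of 1.5. The median lay at -0.56 for the 10 immediate-early genes, at -0.79 for the MEK-ERK feedback genes and at -0.10 for the other immediate-early genes.

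The partners of SRF, EGR, FOS and MYC differed from each other. Among 6 SRF cofactors, 5 were tested, and 2 were called lower and 0 higher. The ternary complex factor gene Elk3 fell from 48.8 and 45.5 to 28.5 and 33.8 CPM (log2 fold change -0.60, adjusted p = 8.46e-04), and Mrtfb, of the actin-regulated cofactors, fell from 7.13 and 8.61 to 4.00 and 3.62 CPM (log2 fold change -1.05). The value of Elk3 lay close to the fold change threshold, and the count of cofactors called lower was 1 without WT replicate 1, without Mek1/2-tKO replicate 1, with upper-quartile factors and with a filter of 10 counts in every library, and 3 with library size alone. Elk1 (-0.54), Mrtfa (-0.33) and Elk4 (0.07) were not called. Of 14 cytoskeletal SRF targets, 13 were tested, with 2 called lower (Flna at -0.71 and Vcl at -0.60), 1 higher (Fhl2 at 1.60) and a median of -0.04. The count called lower was 0 without Mek1/2-tKO replicate 1, 1 without WT replicate 2, with DESeq2, with upper-quartile factors and with a filter of 10 counts in every library, and 3 without WT replicate 1, without Mek1/2-tKO replicate 2 and with library size alone. The value of Vcl is uncertain, with 25.5% of its exon bases in such an overlap.

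The EGR co-repressor gene Nab2, itself known as an EGR target, had 99.6 and 102 CPM in WT and 56.5 and 64.0 CPM in Mek1/2-tKO libraries. It fell by 0.74 on the log2 scale (standard error 0.10, adjusted p = 2.23e-05), although 42.2% of its exon bases overlap genes of the opposite strand. Nab1 was not called, with a log2 fold change of -0.12 (95% interval -0.33 to 0.09). Among 16 T cell genes associated with EGR factors, 15 were tested, with 5 called higher, 3 lower and a median of 0.30. The inhibitory receptor gene Lag3 (-2.20), Ndrg1 (-2.01) and the ubiquitin ligase gene Cblb (-1.48) were lower, and Nrgn (3.78), the adhesion receptor gene Crtam (2.73) and the cell cycle inhibitor gene Cdkn1a (0.91) were higher. Crtam is also expressed by NK and CD8 T cells, whose markers were higher in the same libraries, and their part in its value was not tested.

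Of 8 AP-1 partners of the FOS proteins, 3 were called higher (Jun, Batf3 and Jdp2) and 1 lower (Atf3), with a median of 0.54. The count called higher was 2 with DESeq2. Jdp2 was low, with 4.88 and 5.39 CPM in WT and 7.88 and 8.63 CPM in Mek1/2-tKO libraries (log2 fold change 0.69, adjusted p = 0.0212). Jun, Junb, Jund and Atf3 were also counted among the other immediate-early genes above. Batf3 rose from 39.8 and 36.4 to 129 and 102 CPM (log2 fold change 1.60). Junb had 592 and 616 CPM in WT and 477 and 481 CPM in Mek1/2-tKO libraries and did not reach the fold change threshold (log2 fold change -0.34, adjusted p = 0.00142). Jund had a log2 fold change of 0.50 and was not called, and 52.6% of its exon bases overlap genes of the opposite strand.

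Max, the obligate partner of MYC, had 167 and 164 CPM in WT and 164 and 167 CPM in Mek1/2-tKO libraries (95% interval of the log2 fold change -0.15 to 0.15, adjusted p = 0.999). Of 13 genes of the MYC network, 12 were tested, with 3 called lower, 1 higher and a median of 0.00. Mxd4, whose product competes with MYC for MAX, rose from 6.98 and 6.02 to 34.9 and 33.8 CPM (log2 fold change 2.40, standard error 0.16, adjusted p = 2.82e-08). Mxi1, of the same group of MAX partners, fell by 1.40 on the log2 scale, and Mga (-0.89) and Fbxw7 (-0.82), the gene of a ubiquitin ligase subunit that targets MYC, were lower. Of 30 MYC target genes, 8 were called lower and 1 higher, with a median of -0.31. The pyrimidine synthesis gene Cad fell from 286 and 304 to 120 and 141 CPM (log2 fold change -1.17), and the amino acid transporter gene Slc7a5 (-1.09) and the transferrin receptor gene Tfrc (-0.98) fell too, whereas the chaperonin gene Hspe1 (0.69) was higher.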

How the data were processed

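RNA of polarized WT and Mek1/2-tKO CD4+ T cells was measured in 4 libraries, 2 of each genotype. The authors filtered reads with Trimmomatic, mapped them to GRCm38 and deposited raw counts of uniquely mapped reads per gene (featureCounts of Subread 1.5.1), without normalization. Which annotation release was counted, and with which strand setting, is not given in the sources used here. The exon length deposited with the counts was used for CPM per kb. Symbols were matched to 54723 of 54752 identifiers.

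Genotypes were compared in R 4.3.3 by the robust quasi-likelihood test of edgeR 4.0.16, after filterByExpr and TMM scaling, with Benjamini-Hochberg adjustment over 14330 genes. The biological coefficient of variation was 0.0918. The replicates of a genotype differed by more than sampling noise (chi-square per gene 4.19 in WT and 10.9 in Mek1/2-tKO). Standard errors and 95% intervals come from this fit. Tried as alternatives were a likelihood-ratio test, DESeq2 1.42.0, 3 other scalings, 2 other filters, a replicate block, other thresholds and each library left out. Motifs were searched in RefSeq promoters on both strands. No set test was run.

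The 10 genes and all lists were chosen with earlier results of these data known. The genes named from a list are its called genes with the largest absolute log2 fold change, at most 3 in each direction, among those averaging 2 or more in log2 CPM, together with partners of the 10 genes, Map2k1, Map2k2 and a few cell type markers. Adgre1, S100a8 and Egr4 were named after their values were seen.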

Additional observations from a re-analysis of the deposited data

How the results depend on the processing

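No gene of the 10 changed its direction under the 8 alternatives that kept all libraries and both thresholds. The count of genes called higher was 1, and it was 0 with DESeq2, with library size alone, at an adjusted p under 0.01 and with a 2-fold threshold, and it ranged from 0 to 1 over the fits without 1 of the libraries. The count of genes called lower was 5. It was 4 with DESeq2 and at an adjusted p under 0.01, 2 (Fosl2 and Myc) with a 2-fold threshold and 7 with no fold change threshold, where Egr3 and Srf passed, and it ranged from 4 to 5 with each library left out. Only the value of Fosb reversed, with 0.1217 without WT replicate 1 and 0.2753 without Mek1/2-tKO replicate 1, in a range of -1.21 to 0.28. The cause of these changes was not tested. In the pathway lists, 20 genes were called higher and 39 lower, with ranges of 18 to 21 and of 36 to 46 over the alternatives that kept both thresholds. The MYC network count called higher was 1, and 2 with the likelihood-ratio test and with the filter of 10 counts. Fits that leave out a library rest on the assumption that the lone library varies like those of the other genotype.

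Across 9440 genes, same-numbered libraries deviated from their genotype means with a correlation of 0.0359. Shared deviations were thus not visible, but this value cannot tell whether same-numbered libraries were prepared together. With a replicate block, 5 of the 10 genes were called lower and 1 higher, and 2652 genes were called higher and 2300 lower in all. Scaling by library size alone gave 2388 genes higher and 2848 lower, against 2768 and 2355 with TMM, and upper-quartile factors gave 3041 and 2094. Fos, Fosb and Fosl1 had the fewest counts of the 10 genes, 10 to 176 per library, and the part of depth in their unstable values was not tested. Division by exon length sets the family shares, since on the CPM scale the share of Fosl2 was 80.1% in WT libraries against 51.0% in Mek1/2-tKO libraries.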

Other observations

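Ratios within a library, chosen after the values were seen, are given without a test. On the CPM per kb scale the ratio of Myc to Mxd4 was 118 and 150 in WT and 10.01 and 12.04 in Mek1/2-tKO libraries, and that of Myc to Max was 2.09 and 2.33 against 0.901 and 1.03. The ratio of Fosl2 to Jun was 0.330 and 0.330 in WT and 0.0283 and 0.0253 in Mek1/2-tKO. The ratio of Fosl1 to Jun was 0.195 and 0.201 against 0.105 and 0.0880. Myc was thus less abundant relative to Max and Mxd4, and both FRA genes less abundant relative to Jun, in each Mek1/2-tKO library than in either WT library.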
